A study of Homo sapiens with 4 samples.

Results

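The 10 genes described here, PEG10, SGCE, PEG3, MEST, IGF2, DLK1, NNAT, PLAGL1, GRB10 and GNAS, are imprinted genes with roles in growth and development. They were chosen by their symbols, with the levels and the ketotifen against PBS differences of earlier work on these data known, so their values in this comparison are given as a description and not as a test. All 10 have a row among the 16376 genes of the deposited table. RNA was sequenced in 4 libraries of LASCPC-01, a human cell line of neuroendocrine prostate cancer. N-Myc and activated AKT1 were introduced into prostate epithelium to make it, so both groups carry them. Of these libraries 2 came from cells treated with ketotifen, an H1 antihistamine and mast cell stabiliser, and 2 from cells treated with PBS, all at day 3, and the labels give the genotype of all 4 as WT. The drug dose is not given in the sources used here. LASCPC-01 is 1 line, and the labels name no separate cultures behind the libraries, so the spread within a group, and any p-value built on it, may be technical. The letters A and B tell apart the libraries of a group and pair none across groups.

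In genomic imprinting a gene is read mainly from the copy inherited from the mother or from the father, and methylation set in the germ line marks which copy is silent. Many imprinted genes act on fetal and placental growth, and most are lowered in adult tissue. PEG10, a gag-like gene derived from a retrotransposon and needed for placenta formation, is known as a gene raised in neuroendocrine prostate cancer. IGF2 is a growth factor that signals through the IGF1 receptor, and GRB10 is an adaptor that dampens insulin and IGF signalling. PLAGL1 is a zinc-finger transcription factor with growth-suppressing activity, and GNAS encodes the stimulatory G protein alpha subunit that activates adenylyl cyclase.

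Levels are FPKM, the number of fragments scaled by gene length and by library size, as the authors made them, so levels can be compared between genes per length. Of the 10 genes 5 reached a mean of 1 FPKM over the 4 libraries and were tested, namely MEST, GRB10, PEG10, PLAGL1 and GNAS. The other 5, SGCE, DLK1, NNAT, IGF2 and PEG3, stayed below it. The table held 10586 genes above that level, with a median of 10.9 FPKM. The steps in the FPKM values gave back whole reads, and these, which may lack a factor common to all libraries of a gene, summed to between 31313357 and 34979608 per library. Across genes, the log2 levels of PBS library B correlated least with ketotifen libraries A and B (r = 0.9935 and 0.9939). Those of PBS library A correlated with them at 0.9962 and 0.9959. The 2 PBS libraries correlated with each other at 0.9961, and the 2 ketotifen libraries at 0.9976. PBS library A was thus about as like the ketotifen libraries as it was like PBS library B. Of 10 neuroendocrine markers 5 were tested, while CHGA and SYP were among those below 1 FPKM. Of the tested ones limma called none (3 at an unadjusted p under 0.05), and voom called 1, NCAM1. Over all tested genes limma called 0.123%, and 20.4% had an unadjusted p under 0.05. Voom called 2.40% of all tested genes lower and 3.74% higher, and these shares stand beside every list below. NCAM1 averaged 44.2 ± 0.355 FPKM with ketotifen and 51.6 ± 0.62 FPKM with PBS (SD, n = 2 each). ENO2 averaged 1.83 ± 0.329 FPKM with ketotifen and 2.93 ± 0.24 FPKM with PBS, and UCHL1 488 ± 2.42 FPKM with ketotifen and 446 ± 16.4 FPKM with PBS. Of 8 fibroblast markers 1, COL1A1, reached 1 FPKM, and their summed level was 2.58 and 2.18 FPKM in the ketotifen libraries A and B, against 2.87 and 3.15 FPKM in the PBS libraries. COL1A1 alone gave 2.39 and 1.95 FPKM with ketotifen and 2.53 and 2.75 FPKM with PBS, and the other 7 markers were near 0. PDGFRB was at 0 in all 4 libraries. None of 6 endothelial markers reached 1 FPKM. The immune cell markers summed to 3.05 and 3.18 FPKM with ketotifen and 2.89 and 4.14 FPKM with PBS, nearly all from CD68, and the luminal prostate markers to 20.2 and 18.9 FPKM with ketotifen and 19.8 and 19.04 FPKM with PBS. COL1A1, and with it the fibroblast sum, and NCAM1 were lower with ketotifen, as PEG10 was, and their part in the results below was not tested.

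PEG10 was lower with ketotifen. It had 4.95 and 4.77 FPKM in ketotifen libraries A and B, against 6.13 and 6.43 FPKM in PBS libraries A and B. Both ketotifen values lay below both PBS values, and the ratio of the means, ketotifen over PBS, was 0.775. The recovered reads were 1203 and 1067 with ketotifen and 1334 and 1478 with PBS. On the log2(FPKM + 1) scale, which understates the change of low genes, the difference was -0.31 ± 0.07 (SE). The libraries of a group differed by far less, with library B minus library A at -0.04 for ketotifen and 0.06 for PBS. In such bulk RNA, fewer cells with the transcript and less of it per cell cannot be told apart. Of all tested genes 1.35% had a more negative difference than PEG10.

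**Figure D1:**
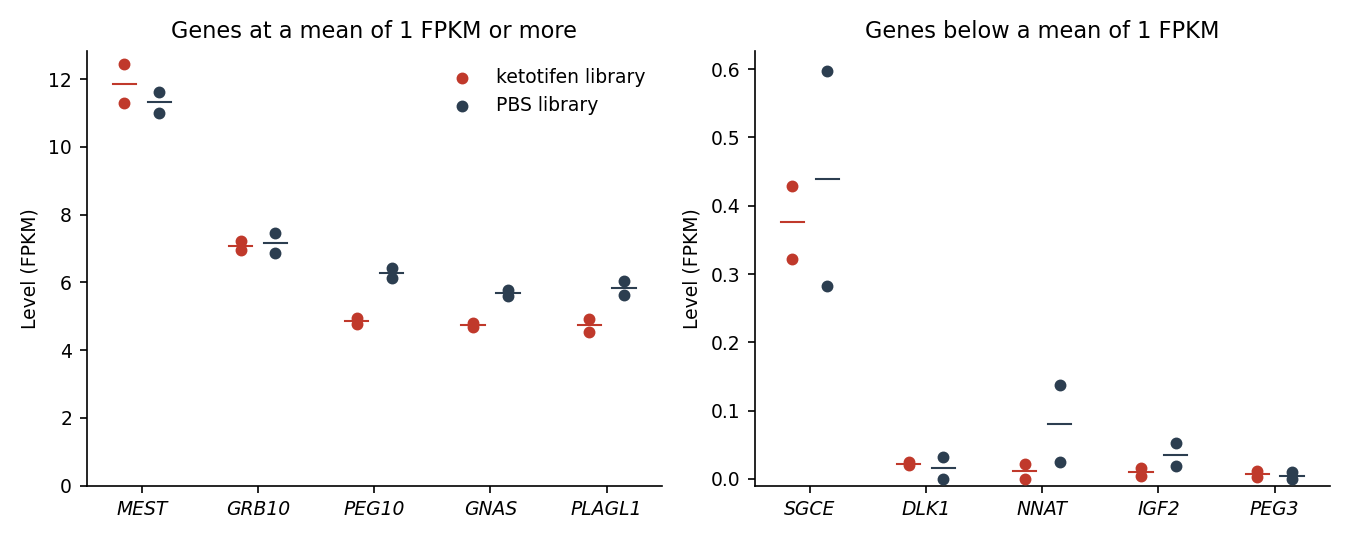
Level in FPKM (vertical axes, linear) of the 10 imprinted genes in each library, with ketotifen to the left of PBS for every gene and a short line at each group mean. The left panel holds the 5 tested genes and the right panel the 5 genes below a mean of 1 FPKM; PEG10, PLAGL1 and GNAS lie lower in both ketotifen libraries, while MEST and GRB10 overlap.

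SGCE, which encodes epsilon-sarcoglycan of the dystrophin-associated complex, lies head to head with PEG10 and is imprinted with it. In GRCh38, PEG10 runs from 94656325 to 94669695 on the plus strand of chromosome 7 and SGCE from 94584980 to 94656133 on the minus strand, with 192 bases between the RefSeq starts. SGCE was at a far lower level than PEG10, with 0.322 and 0.429 FPKM in ketotifen libraries A and B, against 0.597 and 0.282 FPKM in PBS libraries A and B. The groups overlapped, and the PBS libraries alone spanned more than both ketotifen values did. At 53 and 65 reads with ketotifen and 88 and 44 with PBS, no difference between the groups was detectable at this depth. In the GENCODE v29 annotation 219 exonic bases, 3.27% of those of PEG10, are shared with SGCE on the opposite strand. No source used here says whether reads were counted by strand, so those on the shared bases cannot be told apart.

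PLAGL1 and GNAS were also lower in both ketotifen libraries. PLAGL1 lies on the minus strand of chromosome 6, from 143940300 to 144064599, and GNAS on the plus strand of chromosome 20, from 58839748 to 58911192. PLAGL1 had 4.93 and 4.53 FPKM in ketotifen libraries A and B, against 5.62 and 6.03 FPKM in PBS libraries A and B. Its difference was -0.25 ± 0.08 on the log2(FPKM + 1) scale (SE). GNAS had 4.79 and 4.69 FPKM with ketotifen, against 5.60 and 5.79 FPKM with PBS, a difference of -0.22 ± 0.07 (SE). For both genes the ketotifen and PBS values did not overlap, and GNAS had the narrowest spread within its groups of the 5 tested genes on this scale. The locus of GNAS makes several overlapping transcripts from different starts, which 1 value per gene cannot separate, and GNAS-AS1 on the opposite strand shares 8.46% of its exonic bases. PLAGL1 shares 3.31% of its exonic bases with HYMAI, a transcript on the same strand.

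MEST and GRB10, the most abundant of the 10, overlapped between the groups. Both lie on chromosome 7, MEST from 130486175 to 130506465 on the plus strand and GRB10 from 50590068 to 50793453 on the minus strand. MEST, an alpha/beta hydrolase family protein made from the paternal copy, had 12.4 and 11.3 FPKM in ketotifen libraries A and B, against 11.6 and 11.003 FPKM in PBS libraries A and B. The difference was 0.06 on the log2(FPKM + 1) scale, with a 95% interval of -0.10 to 0.22, and its sign rested on ketotifen library A, since it was -0.002 without it. GRB10 had 7.21 and 6.97 FPKM with ketotifen, against 7.45 and 6.86 FPKM with PBS. Its difference was -0.01, with a 95% interval of -0.17 to 0.15, and its sign turned with the scaling, at 0.01 after quantile normalization. The intervals leave room for changes of either gene up to these bounds. Genes on the opposite strand cover part of MEST, with AC007938.2 on 12.6%, MESTIT1 on 10.1% and COPG2 on 4.76% of its exonic bases.

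**Figure D2:**
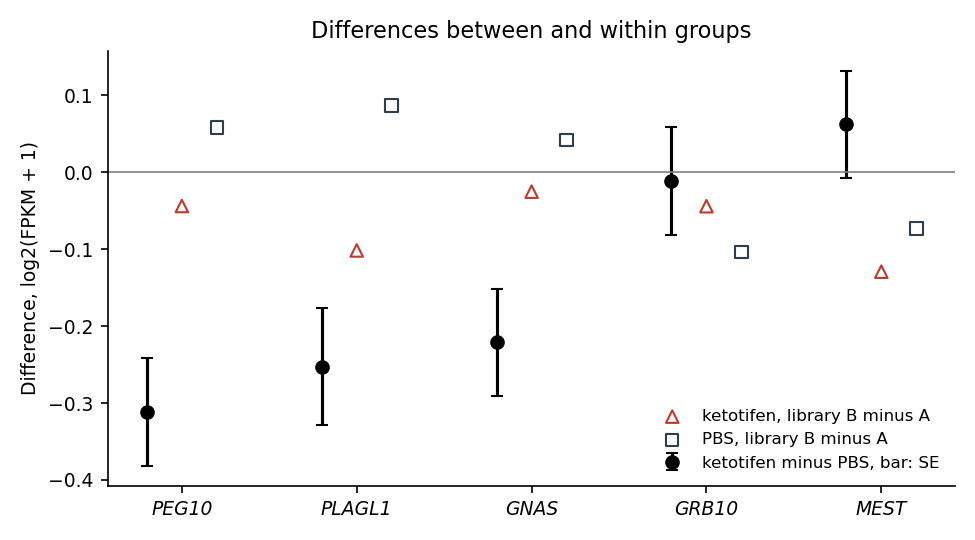
Differences on the log2(FPKM + 1) scale (vertical axis) for the 5 tested imprinted genes. Filled points are ketotifen minus PBS with bars of 1 SE, triangles library B minus A of ketotifen and squares library B minus A of PBS; for PEG10, PLAGL1 and GNAS the difference between groups is at least 2 times as large as either difference within a group.

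The promoter sequences that RefSeq gives (GRCh38.p14) were matched for 4 of the 10 genes, MEST, GRB10, PLAGL1 and GNAS, with 21 windows of 300 bases at alternative starts, each from 250 bases before to 50 after the start. They are shown as the sequence before genes of which PLAGL1 and GNAS were lower in both ketotifen libraries while GRB10 and MEST overlapped. For each gene the window with the most CpG sites follows, which need not be the site of the imprint, 5′ to 3′ on the gene's strand, with the CpG sites in capitals. The PLAGL1 window is chr6:144008210-144008509 and the GNAS window chr20:58888930-58889229. The GRB10 window is chr7:50792825-50793124 and the MEST window chr7:130491835-130492134.
PLAGL1: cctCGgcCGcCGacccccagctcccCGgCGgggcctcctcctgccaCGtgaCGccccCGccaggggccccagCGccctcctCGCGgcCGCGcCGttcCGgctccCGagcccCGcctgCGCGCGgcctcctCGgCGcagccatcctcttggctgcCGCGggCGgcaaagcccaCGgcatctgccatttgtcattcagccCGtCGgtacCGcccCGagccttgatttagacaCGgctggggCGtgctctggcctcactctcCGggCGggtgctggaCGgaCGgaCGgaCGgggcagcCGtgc
GNAS: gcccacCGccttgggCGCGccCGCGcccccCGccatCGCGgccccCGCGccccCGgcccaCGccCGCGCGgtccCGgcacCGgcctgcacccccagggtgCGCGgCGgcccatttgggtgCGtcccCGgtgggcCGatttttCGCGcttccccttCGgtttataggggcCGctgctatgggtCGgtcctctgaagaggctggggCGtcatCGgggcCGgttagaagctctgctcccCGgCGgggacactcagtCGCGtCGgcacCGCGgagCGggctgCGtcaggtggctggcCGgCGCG
GRB10: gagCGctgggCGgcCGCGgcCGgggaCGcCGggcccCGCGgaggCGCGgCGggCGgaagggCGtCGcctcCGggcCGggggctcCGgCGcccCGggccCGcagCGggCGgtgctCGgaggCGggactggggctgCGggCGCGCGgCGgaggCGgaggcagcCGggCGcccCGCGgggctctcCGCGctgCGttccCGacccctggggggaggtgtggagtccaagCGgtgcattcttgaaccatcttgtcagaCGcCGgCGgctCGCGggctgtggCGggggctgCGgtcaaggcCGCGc
MEST: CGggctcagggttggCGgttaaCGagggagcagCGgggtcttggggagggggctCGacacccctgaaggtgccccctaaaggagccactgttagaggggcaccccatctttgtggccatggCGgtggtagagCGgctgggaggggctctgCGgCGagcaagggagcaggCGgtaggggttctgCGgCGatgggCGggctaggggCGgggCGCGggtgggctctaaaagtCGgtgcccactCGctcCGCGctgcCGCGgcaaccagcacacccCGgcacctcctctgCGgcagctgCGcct

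These windows held 39 CpG sites in PLAGL1, 43 in GNAS, 49 in GRB10 and 25 in MEST, where the median of all 35116 promoter windows was 14. Fewer CpG sites were found in 91.3% of all windows than in that of PLAGL1, in 95.0% for GNAS, in 98.4% for GRB10 and in 68.0% for MEST. The other starts of the same genes ranged widely, down to 2 CpG sites in PLAGL1 and 3 in GRB10, and the table of levels does not say which start was used. The sequence GGGGCCCC, bound by the PLAGL1 protein, occurs once in the PLAGL1 window printed above and in none of the other 20 windows of the 4 genes, with both strands searched for this and each motif below. It is present in 1.95% of all windows. TGCCGC, the core bound by ZFP57 when its CpG is methylated, was found at 2 places in the PLAGL1 window and 3 in the MEST window, on either strand, and in 16.7% of all windows. CACGTG, the E-box bound by MYC family proteins, occurs once in the PLAGL1 window and in 7.26% of all windows. GGGCGG, the GC-box, was found at 3 places in PLAGL1, 3 in GRB10 and 2 in MEST, and in 45.0% of all windows. TATAAA, the TATA box sequence, occurs once in the GNAS window, on the strand opposite to that of the gene. On either strand it is present in 11.5% of all windows. The GNAS window held none of the other motifs. A TGCCGC and a GGGCGG match overlap in PLAGL1, and a pair of TGCCGC matches in MEST. Such matches describe the letters and not binding.

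The remaining genes were near absence. DLK1, a transmembrane ligand of the Delta family that marks progenitor cells, had 4 and 3 reads in ketotifen libraries A and B, against 0 and 5 reads in PBS libraries A and B. IGF2, the fetal growth factor, had 4 and 1 reads with ketotifen, against 4 and 12 reads with PBS. No library of these genes held more than those 12 reads. NNAT, a small membrane protein of the developing brain, had 1 and 0 reads with ketotifen, against 1 and 6 reads with PBS. PEG3, a zinc-finger protein, had 4 and 1 reads with ketotifen, against 0 and 3 reads with PBS. The highest of these values was 0.138 FPKM, that of NNAT in PBS library B. A count of 0 allows up to 3 reads, which equals 0.0206 FPKM for DLK1 and 0.0101 FPKM for PEG3 in PBS library A, and 0.0708 FPKM for NNAT in ketotifen library B. These limits cover counting error only. At such read numbers no difference between ketotifen and PBS was detectable for these 4 genes. The annotation also shares 20.6% of the exonic bases of IGF2 with INS-IGF2, 12.9% of those of PEG3 with ZIM2 and 6.38% of those of NNAT with BLCAP, so even these few reads may belong to other genes.

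In order of mean level, ketotifen libraries had MEST, GRB10, PEG10, GNAS, PLAGL1 and SGCE, followed by the genes with few reads. PBS libraries had MEST, GRB10, PEG10, PLAGL1, GNAS and SGCE. With ketotifen the ranges of PEG10, GNAS and PLAGL1 overlapped. With PBS the range of PEG10 lay above those of PLAGL1 and GNAS, which overlapped each other. In both groups MEST stood above GRB10, and GRB10 above the other 3, with no overlap. The order between genes rests on the gene lengths the authors used, which no source used here gives. Among all 16376 rows, 68.8% had a lower mean than MEST, 54.9% a lower mean than PEG10 and 53.7% a lower mean than GNAS.

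Counted over the tested genes, 3 of 5 had both ketotifen values below both PBS values, where 31.2% of all tested genes did, and 0 of 5 had both above, where 23.2% of all tested genes did. Their median difference was -0.22, beside -0.02 over all tested genes, and it was negative in 4 of 5, beside 55.7% of all. None of the 5 was called by limma on log2(FPKM + 1) at a Benjamini-Hochberg adjusted p under 0.05, a rule that called 0.123% of all tested genes. At an unadjusted p under 0.05 the count was 3 of 5, beside 20.4% of all. The voom fit on recovered reads called 1 of 5, PEG10, which it placed lower with ketotifen (log2 change -0.35 ± 0.08 SE). It called 2.40% of all tested genes lower and 3.74% higher. Since these genes were chosen with this comparison known, the counts describe them and support nothing further. The recovered reads of PLAGL1, 335 and 283 with ketotifen and 342 and 388 with PBS, are lower bounds, since a factor shared by all libraries may be missing, and voom weighs such a gene as less deeply read than it may be. Without PBS library A the difference was -0.34 for PEG10 and -0.30 for PLAGL1. Without PBS library B, the library that stood apart, the difference of PEG10 was -0.28.

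**Figure D3:**
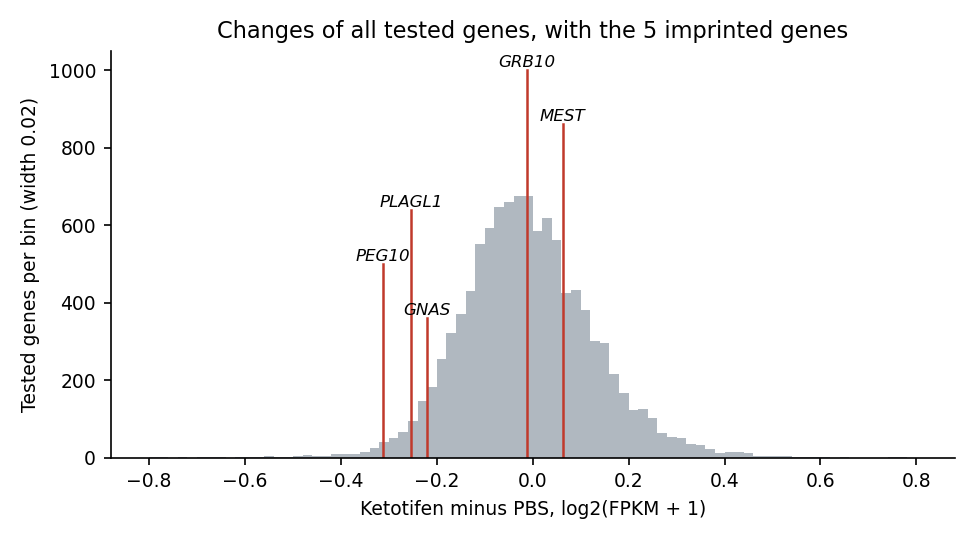
Number of tested genes (vertical axis) by their difference, ketotifen minus PBS on the log2(FPKM + 1) scale (horizontal axis, bins of 0.02), with the 5 tested imprinted genes marked by lines whose height has no meaning. PEG10 at -0.31, PLAGL1 at -0.25 and GNAS at -0.22 lie in the lower tail and GRB10 and MEST near the middle; 17 genes beyond 0.8 in either direction are not drawn.

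Imprinted genes outside the 10 mostly did not pass either test. Of 38 such genes 29 were in the table, 15 were tested, limma called none (1 at an unadjusted p under 0.05), and voom called 1 lower and none higher. That gene was PHLDA2, a pleckstrin homology protein that restrains placental growth and lies in the imprinted cluster of CDKN1C. PHLDA2 had 13.5 and 13.0 FPKM in ketotifen libraries A and B, against 18.2 and 20.9 FPKM in PBS libraries A and B. The difference was -0.53 ± 0.07 (SE; limma adjusted p = 0.0713, voom adjusted p = 0.0154). No other gene of this list reached either threshold. MKRN3, a ring-finger protein that restrains puberty, averaged 6.34 ± 0.625 FPKM with ketotifen and 5.79 ± 0.0191 FPKM with PBS (SD, n = 2 each; limma adjusted p = 0.461). SLC22A18, a membrane transporter of the same cluster as PHLDA2, averaged 1.68 ± 0.0388 FPKM with ketotifen and 1.90 ± 0.0657 FPKM with PBS (limma adjusted p = 0.475). CDKN1C, the cyclin-dependent kinase inhibitor p57, averaged 8.41 ± 0.89 FPKM with ketotifen and 8.60 ± 0.146 FPKM with PBS. The median over the 15 was -0.02, equal to that of all tested genes at this precision. RTL1, MAGEL2, DIO3 and DIRAS3 had less than 0.1 FPKM in either group.

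PEG10 belongs to a family of genes tamed from retrotransposon gag sequences. Of 23 other family genes 21 were in the table, 13 of them below 1 FPKM, and 8 were tested, and neither limma nor voom called any (2 at an unadjusted p under 0.05 in limma). RTL8C averaged 36.0 ± 1.3 FPKM with ketotifen and 40.5 ± 3.75 FPKM with PBS (limma adjusted p = 0.245). RTL8B averaged 11.9 ± 1.01 FPKM with ketotifen and 14.1 ± 0.229 FPKM with PBS (limma adjusted p = 0.163). RTL8A, RTL8B and RTL8C are near-identical copies, so their split of reads is uncertain. LDOC1, a leucine-zipper protein of the same family, averaged 4.18 ± 0.478 FPKM with ketotifen and 4.92 ± 0.37 FPKM with PBS (limma adjusted p = 0.268). The median of the 8 was -0.10. RTL10 and RTL6 had small positive differences of 0.05 each.

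None of the tested factors reported to act on PEG10 passed in limma or voom. Of 8, 6 were tested, with a median of -0.09 and none at an unadjusted p under 0.05 in limma. MYC lay below the filter and was not tested, with 0.0663 and 0.0328 FPKM in ketotifen libraries A and B, against 0.263 and 0.191 FPKM in PBS libraries A and B. Both ketotifen values of MYC lay below both PBS values, at 11 and 5 reads with ketotifen and 39 and 30 reads with PBS. Of all tested genes, which leave out MYC, 31.2% had this order. E2F1, a cell-cycle transcription factor reported to bind the PEG10 promoter, averaged 41.4 ± 0.219 FPKM with ketotifen and 39.4 ± 1.22 FPKM with PBS. RB1, which restrains E2F1, averaged 14.2 ± 0.191 FPKM with ketotifen and 15.3 ± 1.52 FPKM with PBS (limma adjusted p = 0.482). The difference of RB1, -0.10, was smaller than that of PEG10. USP9X, a deubiquitinase, averaged 14.5 ± 0.168 FPKM with ketotifen and 15.6 ± 0.346 FPKM with PBS (limma adjusted p = 0.346). UBQLN2, which lowers PEG10 protein, averaged 13.3 ± 0.32 FPKM with ketotifen and 14.0 ± 0.528 FPKM with PBS.

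Of the IGF pathway, IGF1R and IGF2R were expressed. IGF1, IGF2, the insulin receptor INSR and the adaptors IRS1, IRS2 and IRS4 were nearly absent. SHC1, another adaptor, averaged 16.5 ± 0.257 FPKM with ketotifen and 16.9 ± 0.481 FPKM with PBS. IGF1R, the receptor for IGF2, had 5.20 and 4.83 FPKM in ketotifen libraries A and B, against 5.79 and 6.05 FPKM in PBS libraries A and B. The difference was -0.20 ± 0.07 (SE; limma adjusted p = 0.192, voom adjusted p = 0.114). IGF2R, which clears IGF2, averaged 16.8 ± 0.603 FPKM with ketotifen and 17.1 ± 1.28 FPKM with PBS. IGF1, INSR, IRS1, IRS2 and IRS4 averaged under 0.05 FPKM in both groups. Of 22 genes of this pathway 9 were tested, and neither limma nor voom called any (3 at an unadjusted p under 0.05 in limma). Their median was -0.11, with 8 of 9 negative. Over all tested genes the median was -0.02, 55.7% were negative and 20.4% had an unadjusted p under 0.05. IGF2BP2, an RNA-binding protein known for binding IGF2 mRNA, averaged 10.9 ± 0.0465 FPKM with ketotifen and 12.9 ± 1.64 FPKM with PBS (limma adjusted p = 0.207). GRB7, a relative of GRB10, averaged 13.7 ± 0.155 FPKM with ketotifen and 15.6 ± 0.816 FPKM with PBS (limma adjusted p = 0.193).

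**Figure D4:**
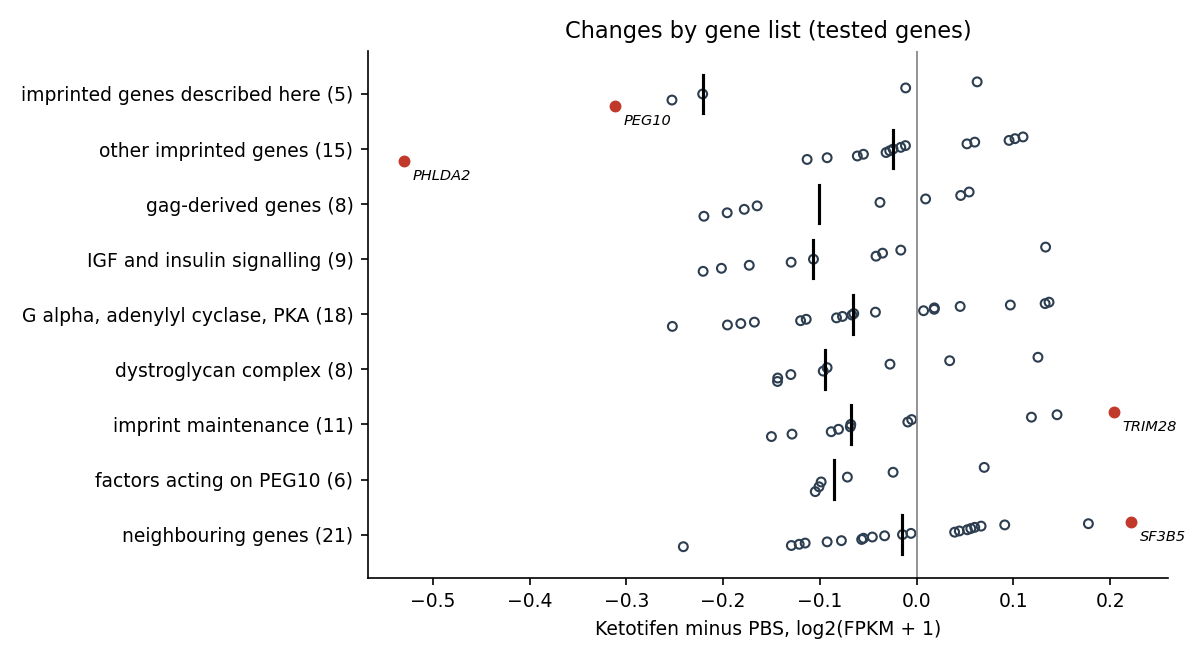
Differences, ketotifen minus PBS on the log2(FPKM + 1) scale (horizontal axis), of every tested gene of 9 lists (rows, with the number of tested genes; cell type markers and paralogs are not drawn), where the bar is the list's median. Filled points are genes called by voom, PEG10, PHLDA2, TRIM28 and SF3B5, and open points genes it did not call; limma called none of the genes drawn.

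Relatives and partners of GNAS ranged from GNAO1 to GNAI2. GNAO1 averaged 0.0351 ± 0.0181 FPKM with ketotifen and 0.0504 ± 0.0151 FPKM with PBS, and GNAI2 110.9 ± 0.29 FPKM with ketotifen and 114 ± 2.29 FPKM with PBS. Neither limma nor voom called any. The list of 22 held G protein alpha subunits, adenylyl cyclases, protein kinase A genes and the transcription factor CREB1. Of the 22 genes 18 were tested, with a median of -0.07. Of these, 4 had an unadjusted p under 0.05 in limma, near the 20.4% over all tested genes. PRKAR1A, the regulatory subunit of protein kinase A, averaged 40.3 ± 1.4 FPKM with ketotifen and 45.8 ± 1.84 FPKM with PBS (limma adjusted p = 0.159). PRKACA, its catalytic subunit, averaged 17.3 ± 0.658 FPKM with ketotifen and 19.6 ± 0.264 FPKM with PBS (limma adjusted p = 0.184). GNAL, the olfactory relative of GNAS, averaged 1.28 ± 0.0336 FPKM with ketotifen and 1.72 ± 0.125 FPKM with PBS (limma adjusted p = 0.187, voom adjusted p = 0.0767). PLAGL2, a relative of PLAGL1, averaged 13.8 ± 0.389 FPKM with ketotifen and 15.9 ± 0.663 FPKM with PBS (limma adjusted p = 0.169). All 4 tested paralogs of the 10 genes had negative differences, with a median of -0.18. Neither limma nor voom called any (3 at an unadjusted p under 0.05 in limma). Over all tested genes 55.7% were negative and 20.4% had such a p.

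Of the dystroglycan complex, in which SGCE can take part, 8 of 13 genes were tested, with a median of -0.09, and neither limma nor voom called any (1 at an unadjusted p under 0.05 in limma). DAG1, dystroglycan itself, averaged 21.2 ± 1.48 FPKM with ketotifen and 22.7 ± 2.39 FPKM with PBS. SNTB1, a syntrophin, averaged 11.9 ± 0.191 FPKM with ketotifen and 13.3 ± 0.263 FPKM with PBS (limma adjusted p = 0.228). UTRN, utrophin, averaged 6.53 ± 0.0545 FPKM with ketotifen and 7.24 ± 0.19 FPKM with PBS (limma adjusted p = 0.307). SNTB2, another syntrophin, averaged 2.49 ± 0.297 FPKM with ketotifen and 2.84 ± 0.0956 FPKM with PBS (limma adjusted p = 0.4).

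Genes that set or keep imprints or DNA methylation were all expressed where listed in the table. Of 13 such genes 11 were tested, limma called none (3 at an unadjusted p under 0.05), and voom called 1 higher. That gene, TRIM28, the corepressor that ZFP57 brings to imprinted loci, had 192.4 and 194.3 FPKM in ketotifen libraries A and B, against 175.9 and 159.95 FPKM in PBS libraries A and B (limma adjusted p = 0.148, voom adjusted p = 0.0176). Both ketotifen values of TRIM28 lay above both PBS values, as in 23.2% of all tested genes. UHRF1, which brings DNMT1 to newly copied DNA, averaged 42.1 ± 0.617 FPKM with ketotifen and 38.0 ± 1.57 FPKM with PBS (limma adjusted p = 0.207). DNMT3B, a DNA methyltransferase, averaged 29.8 ± 0.865 FPKM with ketotifen and 33.2 ± 1.70 FPKM with PBS (limma adjusted p = 0.215). ZFP57 averaged 19.3 ± 1.46 FPKM with ketotifen and 20.5 ± 1.93 FPKM with PBS. Methylation was not measured here.

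Genes next to the 10 did not share a direction. Of 38 neighbouring genes 21 were tested, 9 with positive and 12 with negative differences and a median of -0.01. Limma called none (2 at an unadjusted p under 0.05), and voom called 1 higher. That gene, SF3B5, a splicing factor subunit near PLAGL1, averaged 275.5 ± 3.55 FPKM with ketotifen and 236 ± 11.7 FPKM with PBS (limma adjusted p = 0.117, voom adjusted p = 0.017). WDR25, near DLK1, averaged 2.20 ± 0.182 FPKM with ketotifen and 2.79 ± 0.277 FPKM with PBS (limma adjusted p = 0.206). SRC, near NNAT, averaged 6.81 ± 0.187 FPKM with ketotifen and 7.54 ± 0.0649 FPKM with PBS (limma adjusted p = 0.306). Beside the pair of PEG10 and SGCE, CASD1 had a difference of -0.06 and PPP1R9A one of -0.09.

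By Pearson's r of log2(FPKM + 1) over the 4 libraries, the genes most like PEG10 among 7718 others with a mean of at least 5 FPKM were PAK2 (r = 0.9999), BRD7 (0.9998) and PLEC (0.9996). Over so few libraries 599 of these genes, 7.76%, exceeded 0.95, so their order is a description. PAK2, a protein kinase, had 26.6 and 26.4 FPKM in ketotifen libraries A and B, against 28.4 and 28.8 FPKM in PBS libraries A and B, a difference of -0.10, smaller than that of PEG10. The differences of BRD7, a bromodomain protein, and PLEC, the cytoskeletal linker plectin, were -0.13 and -0.09.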

How the data were processed

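Per the labels' protocols, poly(A) RNA from a TRIzol extraction was sequenced as stranded, paired-end libraries. The tools listed in the submitters' processing notes are fastp, HISAT2 and HTSeq, and the build is GRCh38. No source used here gives the annotation, gene lengths or strand setting. The deposited table holds FPKM values that the authors made, for 16376 genes and 4 libraries. Columns name the group, and their letters match no label.

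Limma 3.58.1 in R 4.3.3 was fitted to log2(FPKM + 1), with a trend over intensity, across the 10586 genes averaging 1 FPKM or more, two-sided, with Benjamini-Hochberg adjusted p-values under 0.05 called. No exact test was made on single genes, since 2 against 2 libraries cannot reach the threshold. Each FPKM value is a whole number of steps worth 1 read each. Allowing for 9 printed decimals and 10 significant digits, whole reads were recovered for 100.0% of tested genes (tolerance at most 0.05 reads), and for 0 of 500 decoy genes (Python 3.11.15). Limma's voom with trimmed-mean scaling ran on them as an alternative. Relative to PBS library A, the depth was 1.12 and 1.03 for ketotifen libraries A and B and 1.06 for PBS library B. Both fits were checked on data made with known changes.

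The genes and lists were chosen with earlier results of these data known. Named from each list were genes called by either fit and the 3 with the smallest limma p. Genes named for their role, such as CDKN1C, IGF2R, ZFP57, DAG1 and those without a p, were chosen after their values were seen, as were the 4 printed promoters. Some genes that the rule takes are not reported here. Positions and promoters are from RefSeq (GRCh38.p14) and exon overlaps from GENCODE v29 (GRCh38).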

Additional observations from a re-analysis of the deposited data

How the results depend on the processing

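PEG10, PLAGL1 and GNAS kept their negative sign in all 13 alternatives run. Their non-overlapping groups fix this in advance for the fits that left out 1 library or changed the pseudocount. The filters and the replicate block leave the difference itself unchanged. Only the scalings, quantile normalization and voom could have changed the sign. PEG10 ranged from -0.19 with a pseudocount of 5 to -0.36 with one of 0.1. The signs of MEST and GRB10 were not stable. MEST was -0.00205 without ketotifen library A and 0.13 without ketotifen library B. GRB10 was 0.0062 after median ratio scaling, 0.012 after quantile normalization and 0.0062 in voom, and -0.063 to 0.0405 over the fits that left out 1 library. The median of the tested genes described, -0.22 at the main settings, was -0.26 with a pseudocount of 0.1, -0.13 with one of 5, -0.27 after scaling all libraries to the same sum (which moved the median of all tested genes to -0.06) and -0.18 after quantile normalization. With no filter it was -0.046 over all 10 genes. Of the 5 tested genes voom called 1 and the replicate block 1, PEG10 in each, beside 650 and 637 over all tested genes.

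Over all genes 13 were called at the main settings. The number was 0 with no filter (limma; 2295 at an unadjusted p under 0.05), 27 with the filter at a mean of 5 FPKM, 3 after median ratio scaling, 3 after quantile normalization, 650 in voom, and 8 to 1925 over the fits without 1 library, the highest without PBS library A. It was 29 without ketotifen library A and 405 without PBS library B. In these fits the lone library of a group is assumed to vary like the other group. PHLDA2 made the count of other imprinted genes 1 with the filter at 5 FPKM, after equal sum scaling, in voom and with the replicate block, and 0 to 1 without 1 library. The IGF and insulin signalling genes had 0 to 1 calls without 1 library. Where no construction shows it, the cause was not tested.

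The column letters tie to no label, so the libraries share only a letter. With the letter as a replicate block 637 genes were called over all genes. The deviations of the A libraries from their group means correlated at 0.102 across genes. With 2 libraries a group, and few reads for DLK1, IGF2, NNAT and PEG3, small differences are not detectable.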

Other observations

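Some genes of these lists lay below the mean of 1 FPKM and were not tested, and their ketotifen and PBS values did not overlap. Among tested genes 31.2% had both ketotifen values below both PBS values, and 23.2% had both above. The share among genes below the filter was not computed. Others of these lists were also separated, such as WT1 and IGFBP5 lower and IGFBP6 and ZDBF2 higher with ketotifen. The genes that follow are given as values, chosen after their values were seen. IGFBP4, a secreted protein that binds IGF1 and IGF2, had 16 and 12 reads in ketotifen libraries A and B, against 61 and 75 reads in PBS libraries A and B, a ratio of mean FPKM of 0.197. IGFBP2, another IGF-binding protein, had 15 and 19 reads with ketotifen, against 27 and 37 reads with PBS. MYC, a transcription factor of growth and cell division and among the factors reported to act on PEG10, had 11 and 5 reads with ketotifen, against 39 and 30 reads with PBS. In the other direction NDN, an imprinted gene of the Prader-Willi region, had 24 and 11 reads with ketotifen, against 8 and 3 reads with PBS, with the nearest libraries of the groups closer than those within ketotifen. At the main settings none of these was tested, so no statement on significance is made.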
